A study of Mus musculus with 6 samples.

Results

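The kinases and mediators of the DNA damage checkpoint and the CDC25 phosphatases that they control were followed at the transcript level in CD8+ T cells exposed to aminooxyacetic acid (AOA). The group holds 10 genes taken by name, *Atr*, *Atm*, *Topbp1*, *Clspn*, *Chek1*, *Chek2*, *Wee1*, *Cdc25a*, *Cdc25b* and *Cdc25c*, among 11922 genes with counts. All 10 were found and all 10 passed the low-count filter that left 11759 genes for testing. AOA blocks enzymes that use pyridoxal 5'-phosphate, the active form of vitamin B6. Splenic CD8+ T cells of 3 C57BL6/J mice were isolated on magnetic columns with beads against CD8α, activated for 72 hours with beads carrying anti-CD3 and anti-CD28, and then expanded for 4 days. Recombinant human IL-2 at 100 units/ml was present throughout in both groups. Cells of each mouse received either water, the vehicle, or AOA at 0.25 mM from activation onwards, and RNA was taken on day 7, which gave 3 vehicle and 3 AOA libraries. The labels do not state the age of the mice. The 6 cultures were sequenced in bulk, so more transcript per cell and more cells that carry the transcript cannot be told apart.

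The checkpoint works as a chain. ATM responds to double-strand breaks and ATR to single-stranded DNA at stalled forks. TOPBP1 activates ATR, and claspin, the product of *Clspn*, hands the signal on to CHK1, while ATM signals mainly through CHK2. Both effector kinases restrain the CDC25 phosphatases, which remove the inhibitory phosphates that WEE1 places on cyclin-dependent kinases. Most of this control acts on the proteins, by phosphorylation and degradation, and it is not visible in RNA. In T cells, which divide very fast after activation, the ATR and CHK1 branch is known for protecting replicating DNA.

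Promoter sequences of 5 members are shown first, since some of these genes rose together and others did not. Windows of 300 bases, from 250 bases before the start of a RefSeq transcript to 50 bases after it, were available from RefSeq (GRCm38.p6) for 8 of the 10 members. Printed here are those of the members with the largest rises, *Chek1* (chr9:36726609-36726908, minus strand) and *Clspn* (chr4:126556730-126557029, plus strand), and of *Cdc25a* (chr9:109875329-109875628, plus strand), and those of 2 members that were not called changed, *Atr* (chr9:95857347-95857646, plus strand) and *Cdc25b* (chr2:131186698-131186997, plus strand). The transcript start used lies at the first base of the gene for *Chek1* and *Atr*, and 23, 61 and 512 bases inside the gene for *Clspn*, *Cdc25a* and *Cdc25b*, so the window of *Cdc25b* holds no base before the first annotated start of that gene. Each runs 5' to 3' on the strand of its gene, and capitals mark letters of the E2F motif or of the CCAAT box. The E2F motif was searched on both strands as TTCCCGC and, with other letters at its middle bases, as TTCGCGC, while the remaining forms accepted were TTGGCGC and, last of them, TTGCCGC.
Chek1: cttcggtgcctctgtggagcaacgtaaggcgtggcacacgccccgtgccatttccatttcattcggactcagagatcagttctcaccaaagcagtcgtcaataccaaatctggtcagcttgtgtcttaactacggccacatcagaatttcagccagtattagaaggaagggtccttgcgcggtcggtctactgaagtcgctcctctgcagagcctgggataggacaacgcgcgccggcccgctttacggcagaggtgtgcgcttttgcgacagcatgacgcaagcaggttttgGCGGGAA
Clspn: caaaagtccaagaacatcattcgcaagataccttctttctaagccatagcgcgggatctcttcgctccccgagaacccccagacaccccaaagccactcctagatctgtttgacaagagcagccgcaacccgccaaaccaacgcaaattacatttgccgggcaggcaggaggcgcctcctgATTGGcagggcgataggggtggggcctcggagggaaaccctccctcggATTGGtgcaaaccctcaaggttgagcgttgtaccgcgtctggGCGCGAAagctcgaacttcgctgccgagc
Cdc25a: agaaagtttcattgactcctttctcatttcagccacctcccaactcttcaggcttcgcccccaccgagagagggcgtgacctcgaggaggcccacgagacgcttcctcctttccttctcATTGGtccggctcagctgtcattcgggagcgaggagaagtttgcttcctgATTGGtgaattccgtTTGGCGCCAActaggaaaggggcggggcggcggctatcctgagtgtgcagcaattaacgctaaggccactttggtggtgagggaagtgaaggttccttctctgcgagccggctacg
Atr: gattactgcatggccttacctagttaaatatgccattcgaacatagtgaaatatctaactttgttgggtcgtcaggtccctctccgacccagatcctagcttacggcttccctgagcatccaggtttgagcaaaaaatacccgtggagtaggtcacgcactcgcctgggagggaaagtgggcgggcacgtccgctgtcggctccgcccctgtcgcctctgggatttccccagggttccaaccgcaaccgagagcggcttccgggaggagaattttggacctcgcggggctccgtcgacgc
Cdc25b: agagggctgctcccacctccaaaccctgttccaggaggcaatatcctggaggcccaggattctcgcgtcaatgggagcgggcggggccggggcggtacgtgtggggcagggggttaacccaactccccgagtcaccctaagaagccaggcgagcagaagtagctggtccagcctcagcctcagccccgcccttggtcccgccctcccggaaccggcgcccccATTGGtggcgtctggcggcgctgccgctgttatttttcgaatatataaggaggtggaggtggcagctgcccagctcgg
The E2F letters occurred in 6 of the 8 windows, those of *Chek1*, *Clspn*, *Topbp1*, *Chek2*, *Cdc25a* and *Atm*. Among 11991 windows of genes tested, 16.8% held them, and the share was 24.3% for windows of genes called higher with AOA and 11.7% for those called lower. All 5 members with a window that rose held them, but so did *Atm*, which was not called. In *Cdc25a* and *Topbp1* the 2 matches overlap on opposite strands and are a single site. The CCAAT letters occurred in 5 of 8 windows, against 37.7% of windows of genes tested, and the letters TTTGAA of the cell cycle homology region in 0 of 8, against 12.2%. A match is a run of letters and no evidence of binding.

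Of the 6 libraries, 2 stood apart from their groups. The chi-square per gene of vehicle replicate 2 was 55.1 and 59.7 against the other vehicle libraries, and that of AOA replicate 1 was 71.1 and 64.6 against the other AOA libraries, whereas the remaining pair of each group differed by at most 10.5. Calls of members that rest on either library are given with and without it.

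With AOA, 7 of the 10 members rose and 3 were not called. *Chek1* and *Clspn* rose most, 13.2-fold and 9.29-fold, followed by *Cdc25c*, *Wee1*, *Topbp1*, *Cdc25a* and *Chek2*, which rose 3.68-fold, 2.93-fold, 2.69-fold, 2.51-fold and 2.07-fold. *Atr*, *Atm* and *Cdc25b* had mean levels within 1.27-fold of vehicle. Levels are given as CPM, counts scaled to a library of 1000000 counts after TMM adjustment for composition. Calls come from the edgeR quasi-likelihood test fitted to all 11759 genes and are made at a Benjamini-Hochberg adjusted p below 0.05, and SE is the standard error of a log2 fold change. For comparison, 53.0% of all genes tested were called, 26.2% higher and 26.8% lower. Of all genes tested, 12.1% were called higher and reached 1 on the log2 scale, as all 7 members did. In the same 7 members the 3 AOA libraries lay above the 3 vehicle libraries, as they did in 31.0% of all genes tested, and in 0 members did they lie below, against 31.1%. Groups without overlap, in either direction, made up 62.1% of all genes tested. The median log2 fold change of the members was 1.38, against -0.02 over all genes tested. No member was called lower by edgeR, DESeq2 or limma, and the count of members lower at an unadjusted p under 0.05 was 0 in edgeR. Without vehicle replicate 2, 8 members were called higher and 1 lower, and without AOA replicate 1, 8 were called higher and 0 lower, with *Atm* added in both and *Cdc25b* lower in the former.

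**Figure D1:**
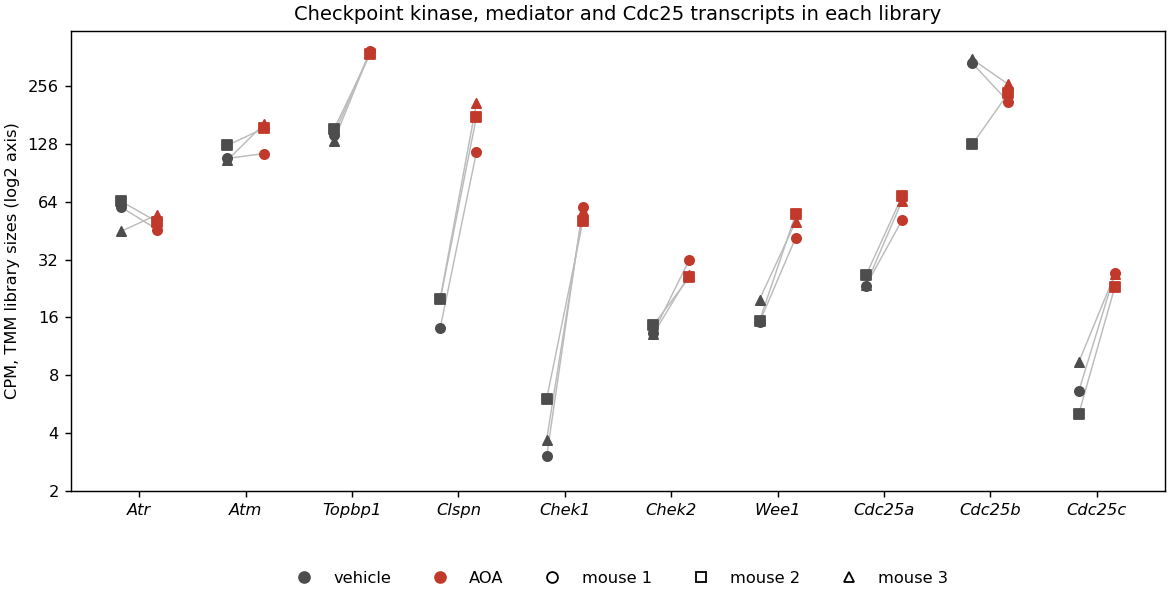
CPM of each member in every library on a log2 axis, with vehicle in grey, AOA in red, a symbol for each mouse and a line joining the cultures of a mouse. Lines rise in all 3 mice for 7 genes and also for *Atm*, whose groups overlap, while *Cdc25b* falls in 2 mice and rises in mouse 2.

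Of the sensor kinases, *Atr* (chromosome 9 from 95857597 to 95953217) was at 60.1, 64.4 and 44.9 CPM in vehicle replicates 1, 2 and 3 and at 45.9, 50.3 and 54.8 CPM in AOA replicates 1, 2 and 3. The groups overlap, and the level was lower with AOA in 2 mice and higher in 1. The log2 fold change was -0.17 (95% interval -0.53 to 0.20, edgeR adjusted p = 0.414), so a rise above 1.15-fold lies outside the interval. Exons of *Atr* share 726 bases with the antisense gene 1700065D16Rik and 462 with Gm16794 in GENCODE, and 178 with the small nuclear RNA gene Gm24004 on the same strand, and the sources do not say whether counting used strand. *Atm* (chromosome 9 from 53437122 to 53536828), the kinase of the double-strand break branch, was at 108, 126 and 106 CPM with vehicle and at 114, 155 and 162 CPM with AOA. Its level was higher with AOA in all 3 mice, but AOA replicate 1 lay below vehicle replicate 2. The log2 fold change was 0.34 (95% interval -0.02 to 0.71, edgeR adjusted p = 0.102). *Atm* passed the threshold without vehicle replicate 2 (0.47, adjusted p = 0.0433) and without AOA replicate 1 (0.49, adjusted p = 0.0147).

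The mediators both rose, and by different amounts. *Topbp1* (chromosome 9 from 103305167 to 103350428), the activator of ATR, was at 143, 153 and 133 CPM with vehicle and at 389, 377 and 387 CPM with AOA. Relative to their mean, its AOA libraries were the most even of any member, at 384 ± 6.45 CPM (SD, n = 3), and the log2 fold change was 1.43 (SE 0.13, edgeR adjusted p = 4.81e-05). GENCODE also names pseudogenes of *Topbp1*. Only uniquely mapped reads were counted, and an effect of the pseudogenes on the count of *Topbp1* was not examined. *Clspn* (chromosome 4 from 126556957 to 126594533), the adaptor that brings CHK1 to ATR, was at 14.1, 19.9 and 20.1 CPM with vehicle and at 116, 178 and 209 CPM with AOA. The lowest AOA library was far above the highest vehicle library, although the AOA libraries spread widely. The log2 fold change of *Clspn* was 3.21 (SE 0.24, edgeR adjusted p = 2.17e-05), which placed it 70th of 11759 genes when ordered from the largest rise down.

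Of the effector kinases, *Chek1* (chromosome 9 from 36708482 to 36726658) was scarce with vehicle, with counts of 38, 95 and 68, against 1313, 961 and 1135 with AOA. The lowest of these counts, 38, has an exact 95% Poisson interval of 26.9 to 52.2, which covers counting error only. In CPM the vehicle libraries were at 3.02, 6.02 and 3.69 and the AOA libraries at 60.4, 50.8 and 57.2, so the groups were far apart. The log2 fold change was 3.72 (95% interval 3.17 to 4.27, edgeR adjusted p = 1.40e-05), 38th of all genes tested. *Chek2* (chromosome 5 from 110839800 to 110874140), the partner of ATM, was at 13.3, 14.5 and 13.0 CPM with vehicle and at 31.9, 25.8 and 26.7 CPM with AOA. It rose in all 3 mice but by a smaller step, 1.05 on the log2 scale (95% interval 0.70 to 1.40, edgeR adjusted p = 5.51e-04).

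*Wee1* (chromosome 7 from 110122059 to 110143299), which places the inhibitory phosphate on CDK1, was at 15.1, 15.3 and 19.8 CPM with vehicle and at 41.6, 55.2 and 50.5 CPM with AOA. It rose in all 3 mice, by 1.55 on the log2 scale (SE 0.17, edgeR adjusted p = 1.33e-04). The phosphatases that undo this step did not move as a family. *Cdc25a* (chromosome 9 from 109875518 to 109893895), which acts from the G1/S transition onwards, was at 23.4, 26.4 and 23.6 CPM with vehicle and at 51.4, 68.4 and 64.8 CPM with AOA. *Cdc25a* rose by 1.33 on the log2 scale (SE 0.15, edgeR adjusted p = 1.53e-04). *Cdc25c* (chromosome 18 from 34732993 to 34751564), known for activating CDK1 and cyclin B at mitosis, was at 6.59, 5.01 and 9.34 CPM with vehicle and at 27.1, 23.1 and 26.8 CPM with AOA. Both genes were higher with AOA in every mouse and their groups did not overlap, and the log2 fold change of *Cdc25c* was 1.87 (SE 0.23, edgeR adjusted p = 2.33e-04). Exons of *Cdc25c* share 623 bases with Gm3550 on the opposite strand.

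*Cdc25b* (chromosome 2 from 131186436 to 131198511), a starter phosphatase of the G2/M transition, had the highest mean CPM of the members with vehicle and behaved differently in 1 mouse. It was at 337, 128 and 354 CPM in vehicle replicates 1, 2 and 3 and at 212, 237 and 262 CPM in the AOA libraries. The AOA libraries lay below vehicle replicates 1 and 3 and above vehicle replicate 2. Over all libraries the log2 fold change was -0.21 (95% interval -0.93 to 0.52, edgeR adjusted p = 0.619). Without vehicle replicate 2 it was -0.51 and was called lower (edgeR adjusted p = 0.0146), so the absence of a call rests on that library. Its exons share 92 bases with *Spef1* on the opposite strand.

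**Figure D2:**
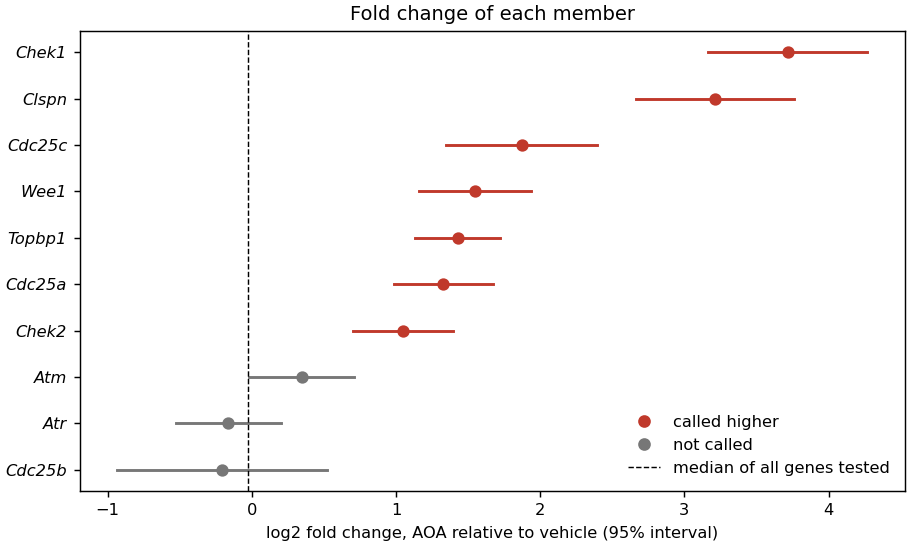
Log2 fold change of each member, AOA relative to vehicle, with its 95% interval from edgeR, in red where called higher and grey where not called, and a dashed line at -0.02, the median of all genes tested. *Chek1* at 3.72 and *Clspn* at 3.21 stand to the right of the other members, and the intervals of *Atm*, *Atr* and *Cdc25b* include 0.

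Levels per kilobase of gene length allow the members to be ordered against each other. With vehicle, *Cdc25b* led at 86.7 ± 40.1 CPM per kilobase (SD, n = 3), then came *Topbp1* at 28.0 ± 1.89 and *Atm* at 9.46 ± 0.942. *Chek1* was last at 1.25 ± 0.464, below *Cdc25c* at 3.59 ± 1.13 in every library. With AOA, *Cdc25b* (75.2 ± 7.84) and *Topbp1* (75.2 ± 1.26) could not be placed apart, and *Clspn* came next at 33.7 ± 9.46. *Chek1* had moved from place 10 to place 5, at 16.5 ± 1.44 CPM per kilobase. From *Cdc25a* in place 4 down to *Atm* in place 9 the ranges of neighbours overlapped, and *Atr* was last at 6.23 ± 0.551. With vehicle, the neighbours whose ranges overlapped were *Atr* with *Cdc25a*, *Cdc25a* with *Chek2*, and *Clspn* with *Cdc25c*.

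The balance between members was set out as the log2 ratio of their levels per kilobase in each library, for 8 pairs taken by role. A two-sided exact permutation test over 3 against 3 libraries cannot give a p below 0.1, and the 6 pairs that reached it had an adjusted p of 0.133 over the 8 pairs. The widest shift was that of *Chek1* to *Chek2*, from -2.31 ± 0.426 with vehicle to 0.40 ± 0.0927 with AOA (SD, n = 3), a difference of 2.71 (exact p = 0.1). *Chek1* was thus the scarcer of the effector kinase transcripts in the 3 vehicle libraries and the more abundant in the 3 AOA libraries. The ratio of *Clspn* to *Topbp1* was 1.76 higher with AOA and that of *Atr* to *Atm* differed by -0.49, and in both pairs the groups did not overlap (exact p = 0.1). *Cdc25b* to *Wee1* differed by -1.62, *Cdc25a* to *Cdc25b* by 1.39 and *Cdc25c* to *Cdc25b* by 1.98, again without overlap (exact p = 0.1 each). *Cdc25a* to *Wee1* differed by -0.23 (exact p = 0.4) and *Cdc25c* to *Wee1* by 0.36 (exact p = 0.3), and these groups overlapped. The direction was shared by the 3 mice in each pair except *Cdc25a* to *Wee1*.

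**Figure D3:**
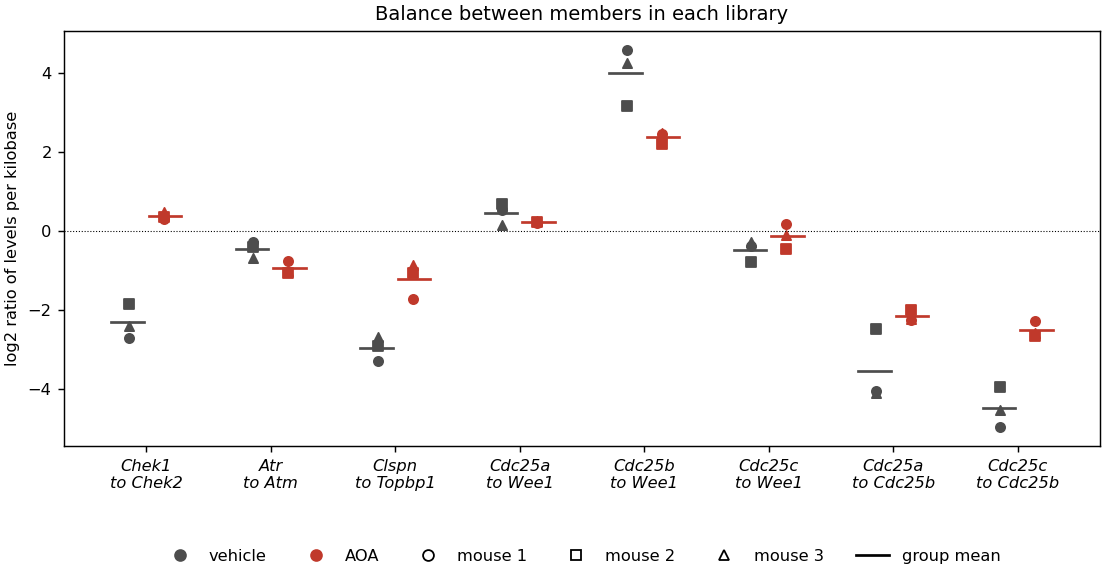
Log2 ratio of levels per kilobase for 8 pairs of members in each library, with vehicle in grey, AOA in red, a symbol for each mouse and a bar at the group mean. *Chek1* to *Chek2* crosses from -2.31 to 0.40, and *Cdc25a* to *Wee1* and *Cdc25c* to *Wee1* are the pairs whose groups overlap.

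Since many cell cycle genes were higher with AOA, each member was also set against the mean log2 CPM of the 6 *Mcm2* to *Mcm7* genes, which encode the replicative helicase, and of 10 mitotic genes in the same library. All 6 and all 10 of these were called higher, with median log2 fold changes of 2.14 and 2.25. Relative to the helicase genes, *Chek1* was 1.50 ± 0.581 log2 units (SD, n = 3 mice) higher with AOA and *Clspn* 0.94 ± 0.0925 higher, in all 3 mice. Relative to the mitotic genes the differences were 1.37 ± 0.816 and 0.81 ± 0.319, again positive in all 3 mice. The other 8 members had negative mean differences from the helicase genes, from -0.35 ± 0.487 for *Cdc25c* to -2.40 ± 0.251 for *Atr*, and from the mitotic genes, from -0.47 ± 0.209 for *Cdc25c* to -2.53 ± 0.542 for *Atr*. Against the helicase genes *Topbp1*, *Wee1* and *Cdc25a*, all called higher, were at -0.82 ± 0.0563, -0.70 ± 0.378 and -0.93 ± 0.150. Of the 20 comparisons, 18 had an exact permutation p of 0.1, the smallest possible unadjusted (0.111 adjusted over the 20), and the others were *Cdc25c* against the helicase genes (exact p = 0.5) and *Clspn* against the mitotic genes (exact p = 0.2).

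**Figure D4:**
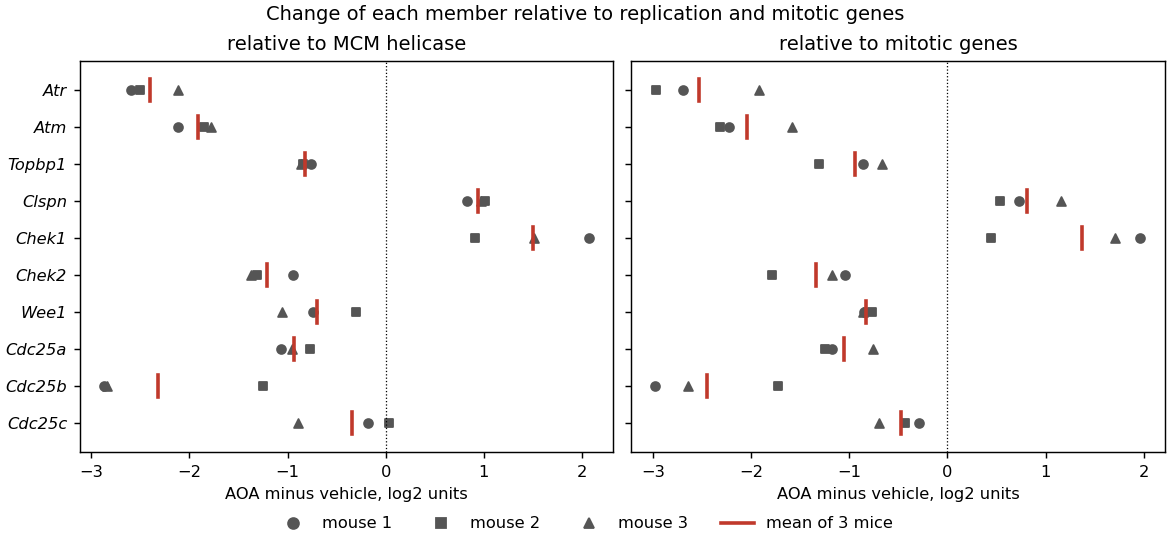
Change of each member, AOA minus vehicle in log2 units, relative to the mean of the helicase genes (left) and of the mitotic genes (right), with a symbol for each mouse and a red bar at the mean of 3 mice. *Chek1* and *Clspn* lie to the right of 0 in every mouse, and *Atr*, *Atm* and *Cdc25b* lie farthest to the left.

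The other genes of the pathway were read off the same test in 6 lists chosen by role. Of 82 such genes tested, 48 were called higher (58.5%) and 7 lower, against 26.2% higher and 26.8% lower over all genes tested. The shares over all genes are the background for each list below. Among the partners of ATR activation (the clamp, its loader, replication protein A and the fork protection complex), 15 of 16 were called higher, with a median log2 fold change of 1.16, and 13 to 15 with a library left out, where *Atrip* or *Rad1* or both lost their calls. The largest rises were those of *Rfc5* (2.49, edgeR adjusted p = 1.40e-05) and *Rfc4* (2.42), which encode clamp loader subunits, and of *Tipin* (2.40), of the fork protection complex. *Atr* itself, at -0.17, lay below all 16 of them, the lowest of which was at 0.11.

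Among genes of break signalling around ATM, 8 of 14 were higher and 2 lower, with a median of 0.65. *Brca1* (2.64), its partner *Bard1* (2.59) and *H2afx* (2.59), the histone variant that ATM marks at breaks, rose most, with edgeR adjusted p of at most 2.59e-05. *Atmin*, which encodes a cofactor of ATM, and *Trp53bp1*, which encodes the break-binding protein 53BP1, were lower, with log2 fold changes of -0.87 and -0.56 (edgeR adjusted p = 0.00156 and 0.00514).

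Of the genes of the CDK1 switch, which cover the kinases and cyclins that WEE1 and CDC25 act on and mitotic regulators up- and downstream of them, 13 of 14 were higher, with a median of 2.32. *Ccne2* (3.05) and *Ccna2* (3.04), which encode cyclins E2 and A2, and *Cdk1* (2.94) led, with edgeR adjusted p of at most 3.15e-05. The 14-3-3 proteins hold phosphorylated CDC25 away from its target, and 6 of their 7 genes were higher, with a median of 0.95 and the largest rises in *Ywhaq* (1.41), *Ywhah* (1.12) and *Ywhab* (1.00). With a library left out 4 to 6 of them were higher, and the calls lost were those of *Ywhag* and *Ywhaz*. Of 9 tested genes for the turnover of CDC25, WEE1 and claspin, 3 were higher (33.3%, against 26.2% of all genes), and 3 to 4 with a library left out. These were *Skp1a* (0.98) and *Rbx1* (0.80), subunits of the SCF ubiquitin ligase, and *Fzr1* (0.56), an activator of the anaphase-promoting complex.

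The p53 list (TRP53 and its targets), which holds *Trp53*, genes of its inhibitors such as *Mdm4* and genes often listed as its targets, some of them also induced by other signals, depended on vehicle replicate 2. Of 22 genes, 3 were called higher and 5 lower, with a median of 0.09, against 26.2% higher and 26.8% lower over all genes tested. Without vehicle replicate 2, 10 were called higher and 4 lower, with a median of 0.28, while 1 was called higher without vehicle replicate 1, vehicle replicate 3 or AOA replicate 1. That vehicle library was above the other vehicle libraries for *Cdkn1a*, the inhibitor of cyclin-dependent kinases known as p21, at 217 CPM against 56.4 and 73.2, with 81.3, 122 and 101 CPM in the AOA libraries. *Cdkn1a*, named after its values were seen, was not called over all libraries (-0.19) and was called higher without that library (0.68, edgeR adjusted p = 0.0157). *Trp53* (0.72), *Pmaip1* (0.68) and *Bax* (0.60) were higher, with edgeR adjusted p of at most 0.0370. *Pmaip1* kept its call without vehicle replicate 2 but lost it with any 1 of the other libraries left out (edgeR adjusted p = 0.0598 to 0.119), and *Bax* lost its call without vehicle replicate 1, vehicle replicate 3 or AOA replicate 1 (edgeR adjusted p = 0.0623 to 0.0750). *Gadd45b* fell by 3.10, *Bbc3*, which encodes the death protein PUMA, by 1.79 and *Btg2* by 0.93 on the log2 scale, with edgeR adjusted p of at most 0.00244. *Phlda3* was at 9.05, 36.9 and 11.2 CPM in vehicle replicates 1, 2 and 3 and at 38.6, 35.4 and 42.0 CPM with AOA. Its log2 fold change of 1.02 was not called over all libraries (edgeR adjusted p = 0.0808), and was 1.96 and called without vehicle replicate 2 (edgeR adjusted p = 2.49e-05).

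**Figure D5:**
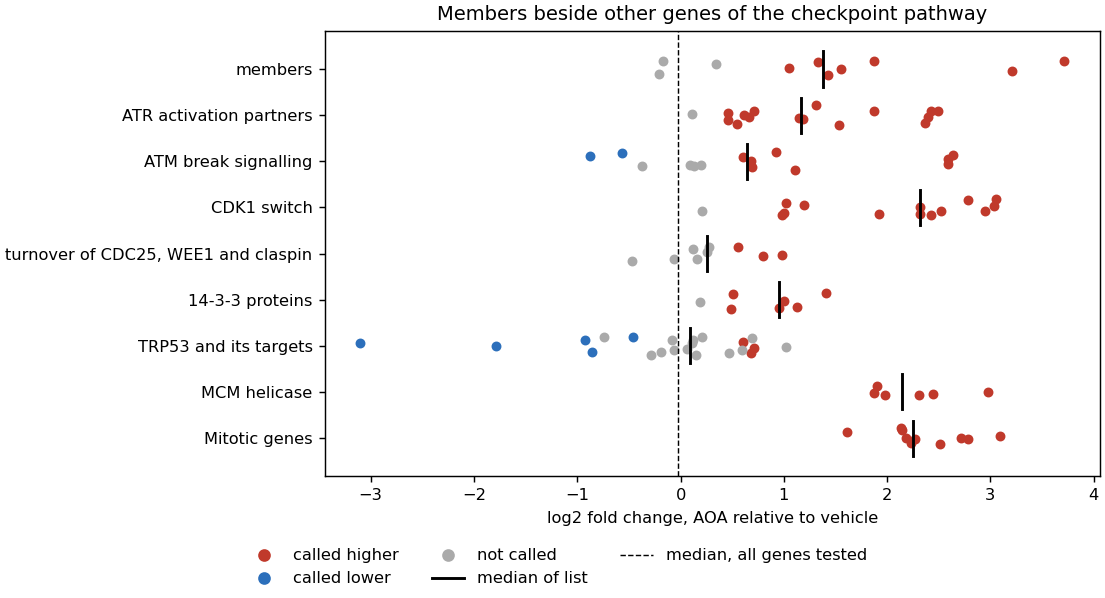
Log2 fold change of every tested gene, AOA relative to vehicle, in the members, in 6 lists of the checkpoint pathway and in the helicase and mitotic genes, coloured by call, with a bar at the median of each list and a dashed line at the median of all genes tested. The members spread from -0.21 to 3.72, the CDK1 switch has its median at 2.32 and the p53 list at 0.09.

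Library totals ran from 12881962 to 18934869 counts with vehicle and from 18696114 to 21997078 with AOA. With all libraries thinned to the smallest total, the same number of members, 7, was called higher and the log2 fold change of *Chek1* was 3.67. The 6 markers of CD8 T cells summed to between 3304 and 4213 CPM with vehicle and between 4251 and 4984 CPM with AOA, with *Cd8a* and *Cd8b1* called higher (log2 fold changes 1.03 and 0.64), *Cd2* lower (-0.61) and 3 not called (*Cd3d*, *Cd3e* and *Cd3g*, from -0.31 to -0.13). Some genes listed as markers of other cell types also differed between the groups. Which cells carried these transcripts was not tested. The 4 CD4 T cell markers summed to 158 to 210 CPM with vehicle and 33.0 to 54.3 CPM with AOA, where *Cd4*, *Cd40lg* and *Zbtb7b* were called lower (log2 fold changes from -3.08 to -2.17) and *Foxp3* was not called (0.36), and the 4 NK cell markers to 264 to 391 CPM and 155 to 229 CPM. Among the latter *Klrb1c* and *Klrk1* were called lower (log2 fold changes -3.02 and -2.62), *Eomes*, the largest with AOA, was not called (0.04), and *Ncr1* had 37 counts in vehicle replicate 2 and 0 in the other vehicle libraries. The 3 of 6 myeloid markers with counts summed to 40.8 to 54.2 CPM with vehicle and 0.873 to 3.33 CPM with AOA, and nearly all of the vehicle sum was *Itgam* (40.5 to 52.9 CPM), which was called lower, while *Cd14* was at most at 1.03 CPM. Of B cell markers, *Cd79b* was called higher, at 10.6 to 13.0 CPM with vehicle and 19.6 to 28.2 CPM with AOA (log2 fold change 1.01, edgeR adjusted p = 0.00172), while *Cd79a* and *Ms4a1* were at most at 2.28 CPM in any library and not called. None of these markers with counts was at 0 in all 6 libraries. Counts of *Lyz2* were 0, 5 and 0 with vehicle and 6, 22 and 2 with AOA, and 0 of 5 erythroid markers had values to analyse. The part of these shifts in the changes of the members was not tested.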

How the data were processed

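RNA of 3 vehicle and 3 AOA cultures, from the same 3 mice, was sequenced as stranded messenger RNA libraries. The authors aligned paired-end reads in STAR with its defaults and, for each gene, deposited its length and the count of reads that mapped uniquely, without normalization. The submitters' processing notes also name featureCounts and mm10, but the sources used here give no versions, annotation, strand setting or gene filter. The study used DESeq2 for differential expression.

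The test was run in edgeR 4.0.16 under R 4.3.3 (filterByExpr with a minimum count of 10, TMM, robust quasi-likelihood test, no mouse term). A standard error is the absolute log2 fold change over the root of the F statistic, and 95% intervals follow from it. Log2 CPM has a prior count of 2. Alternatives were DESeq2 1.42.0, limma 3.58.1 (voom), other scalings and filters, the mouse as a replicate block and each library left out. Steps were tested on simulated data. Positions and promoters are RefSeq GRCm38.p6, the build of mm10, and exon overlaps are GENCODE vM21.

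Mouse numbers are the replicate numbers in the library titles, and libraries with the same number were taken as cultures of the same mouse. Deviations from group means correlated within mice 1, 2 and 3 with r of 0.0868, 0.189 and 0.194 across genes, which are not independent replicates. Between a vehicle and an AOA library of different mouse numbers r ran from -0.177 to 0.0350. No replicates were duplicates of one library, since the chi-square between any pair of a group was at least 10.0 per gene.

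The members and lists were chosen with earlier results of these data known. All members are named, and in each pathway list up to 3 called genes per direction with the largest log2 fold change, plus any uncalled gene above 1. *Cdkn1a* and genes whose calls changed with a library left out were named after their values were seen. 1 listed gene, *Nek11*, was not analysed here, and 1 marker gene is not reported here.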

Additional observations from a re-analysis of the deposited data

How the results depend on the processing

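The 7 calls of raised members held under all 14 alternatives, and their number reached 8 at most. With each library left out, 7 to 8 members were higher and 0 to 1 lower, and among the pathway lists 43 to 56 genes were higher and 6 to 7 lower. The member added was *Atm*, and the member lowered was *Cdc25b*, without vehicle replicate 2. The median of the members ranged from 1.35 to 1.47 with a library left out, and was 1.35 with at least 10 CPM in 3 libraries, which tests fewer genes. The log2 fold change of *Cdc25b* changed sign without vehicle replicate 1 (0.0017) and without vehicle replicate 3 (0.059), and was not called in either, while the range with each library left out was -0.51 to 0.059. With the mouse as a replicate block 7 members were higher, the median was 1.38 and no call of a member changed. Among the pathway lists 51 genes were higher with the block, against 48 in the main fit, and 7 were lower in both. For the 8 ratios an exact test on the differences within 3 mice cannot give a p below 0.25. In the p53 list 1 to 10 genes were higher and 4 to 5 lower with a library left out. Thinning to equal totals and counting by list with a library left out were added once the data were known. With 3 cultures per group, small changes of *Atr*, *Atm* and *Cdc25b* cannot be resolved.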
